A study of Mus musculus with 273 samples.

Results

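The striatum, the input nucleus of the basal ganglia, was sampled around the clock for small RNA, and every microRNA (miRNA) hairpin was tested for a 24 h rhythm in that tissue alone. The samples were all striatum libraries with a total of at least 500000 counts, which kept 45 of 46 striatum libraries, out of 273 libraries in a series that also holds cortex, hypothalamus and liver. The library left out, ZT9 replicate 6, held 26341 counts. The tissue was the right striatum, flash frozen. The mice were C57BL/6J, an inbred strain, wild-type with no transgene named, male and 26 weeks old in every group, and each library came from a different animal. Zeitgeber time (ZT) counts hours from a daily reference that is lights on by convention; the labels used here give no lighting schedule. There were 7 libraries at ZT0, 6 at ZT3, 8 at ZT6, 8 at ZT9, 9 at ZT12, 2 at ZT18 and 5 at ZT21, and none at ZT15. ZT0 to ZT12 were covered on both days of the 36 h series, whereas ZT18 and ZT21 were covered on the first day only, so 7 libraries carry the hours after ZT12.

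miRNAs are short RNAs cut from hairpin precursors. They guide Argonaute proteins to messenger RNAs that match bases 2 to 8 of the miRNA, the seed, and lower the output of those messengers. The circadian clock is a transcriptional feedback loop that runs in most cells, and in striatum it has been linked to dopamine signalling and to motor and reward behaviour. miR-132 and miR-212, which neuronal activity induces through CREB, and miR-219 are the classical examples of miRNAs tied to the clock in the brain.

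A peak-to-trough log2 ratio, the height of the fitted 24 h cosine curve from its lowest to its highest point, describes the size of a rhythm here, and levels are given as CPM, a hairpin's counts relative to its library's total after scaling with edgeR. Tests were edgeR quasi-likelihood F tests of the cosine and sine together, adjusted by the Benjamini-Hochberg method over all hairpins tested, with calls at an adjusted p below 0.05. In the 45 libraries 2 of 381 hairpins were called (0.525%), miR-497a and miR-195a, which are neighbours in the genome. Without ZT21 replicate 3 neither was called, and a different hairpin, miR-5099, was the 1 called of 379 (0.264%). The most abundant striatal miRNAs, the miRNAs induced by neuronal activity and those linked to the clock were not called in either fit.

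The sequences that matter for the first pair are the mature miRNAs of the miR-15/16 family, which share a seed and repress cell cycle and survival genes such as Ccnd1 and Bcl2. miR-497a (chromosome 11, 70234717 to 70234800, plus strand, GRCm38) and miR-195a (chromosome 11, 70235042 to 70235135, plus strand) are separated by 241 bases, and GENCODE M21 annotates no protein-coding gene over either. On the opposite strand the hairpin of miR-497b overlaps miR-497a, and whether counting used strand is not given in the sources used here, so their reads cannot be told apart. RefSeq (GRCm38.p6) gives these 5p sequences, with the seed in capitals.
miR-497a-5p: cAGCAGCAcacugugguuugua
miR-195a-5p: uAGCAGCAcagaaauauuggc
miR-15a-5p: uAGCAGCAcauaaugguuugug
miR-15b-5p: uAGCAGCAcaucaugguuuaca
miR-16-5p: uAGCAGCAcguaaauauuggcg
miR-322-5p: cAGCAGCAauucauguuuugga
These 6 carry the seed AGCAGCA, which 10 of the 1679 mature mouse miRNAs in that table hold. miR-5099 (chromosome 12, 36816205 to 36816278, plus strand, GRCm38) lies outside other annotated genes, and its hairpin is shown because it is the miRNA called without ZT21 replicate 3.
miR-5099 hairpin: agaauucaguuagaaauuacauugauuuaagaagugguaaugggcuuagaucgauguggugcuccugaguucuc

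The libraries differed in depth and makeup in ways that bear on every result. Totals ran from 743902 to 4022070 counts with a median of 2095823. A count of 0 allows up to 3 counts, or 0.746 to 4.03 CPM, a limit that covers counting error only. Runs are stretches of neighbouring library numbers under 1 code in the labels, a grouping made here. It gave totals of 2434104 to 4022070 in runs 1 to 3 (18 libraries) and 743902 to 2212919 in runs 4 to 9 (27 libraries), with no overlap. Across the tested hairpins the 24 h curve took a median of 2.73% of the variance of log2(CPM + 1), against 4.55% for any 2 terms on average. The run took a median of 34.6%, against 15.9% for any 7 terms. Both ZT18 libraries belonged to run 6. Neuronal miRNAs (the miR-124, miR-128, miR-9, miR-129, miR-137, miR-138 and miR-153 hairpins) summed to 10240 to 27640 CPM in striatum and 12.7 to 31.5 CPM in liver. The largest striatal means were 5408 CPM for miR-128-1, 3383 for miR-128-2, 3191 for miR-153 and 1937 for miR-129-2. In contrast, miR-9-3, miR-124-2 and miR-9-1 had means of 13.4, 6.88 and 6.20 CPM. Of the 14 hairpins 11 passed the filter on low counts. The striatal sum was thus far above that of liver but rested on few of these hairpins. In bulk tissue, fewer cells of a type and less of a miRNA per cell cannot be told apart.

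ZT21 replicate 3 stood apart from the other libraries. It held the highest level of 73 and the lowest level of 81 of the 381 tested hairpins. The interquartile range of its log2 ratios to the median library was 1.46, the widest of the 45, and limma gave it a quality weight of 0.0967, the lowest, where weights ran up to 2.89. Its total of about 3219000 counts was within the range of runs 1 to 3. Leaving out 1 library at a time moved the fitted curve most, for 126 of 381 hairpins (33.1%), when that library was this one. ZT18 replicate 1 came next with 41 hairpins (10.8%).

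miR-497a gave the largest change. At ZT21 its levels were 190, 252, 5579, 189 and 87.1 CPM in replicates 1 to 5. At ZT18 they were 181 and 146 CPM. At the other times the lowest, median and highest values were 161, 177 and 233 CPM at ZT0, 70.2, 138 and 198 at ZT3, 60.3, 181 and 231 at ZT6, 64.8, 176 and 230 at ZT9, and 74.3, 142 and 223 at ZT12. ZT21 replicate 3 was thus the only library above 252 CPM, and all ZT groups overlapped among the other 44. With all 45 libraries the ratio from trough to peak was 2.45 ± 0.54 on the log2 scale (SE, n = 45), 5.48-fold, peaking at ZT19.4 (± 0.806 h), with adjusted p = 0.00299. Without ZT21 replicate 3 it was 0.16 ± 0.22 (n = 44; adjusted p = 0.996), and the upper bound of the joint 95% region for the curve was 0.78, or 1.71-fold.

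miR-195a was likewise called in the 45 libraries and not in the 44. Its ZT21 levels were 170, 183, 4285, 120 and 135 CPM, and at ZT18 it had 115 and 108 CPM. Elsewhere the medians lay between 126 CPM at ZT12 and 168 CPM at ZT9, with single libraries from 52.5 to 238 CPM. The value in ZT21 replicate 3 was again above every other library. Without it the groups overlapped, except that both ZT18 libraries were just below every ZT9 library (lowest 117 CPM) and every ZT21 library. The ratio with all libraries was 2.27 ± 0.54 (SE, n = 45), peak ZT19.0 (± 0.812 h), adjusted p = 0.00547. It was 0.11 ± 0.16 without that library (n = 44; adjusted p = 0.996; upper bound 0.59). Permutation tests that reassigned ZT over the libraries gave p = 0.0966 for miR-497a and 0.400 for miR-195a with all 45 libraries (100000 resamples, no adjustment over hairpins). Leaving out any of the other 44 libraries kept both calls in 44 of 44 fits, with adjusted p of at most 0.00559 for miR-497a and 0.00958 for miR-195a.

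**Figure D1:**
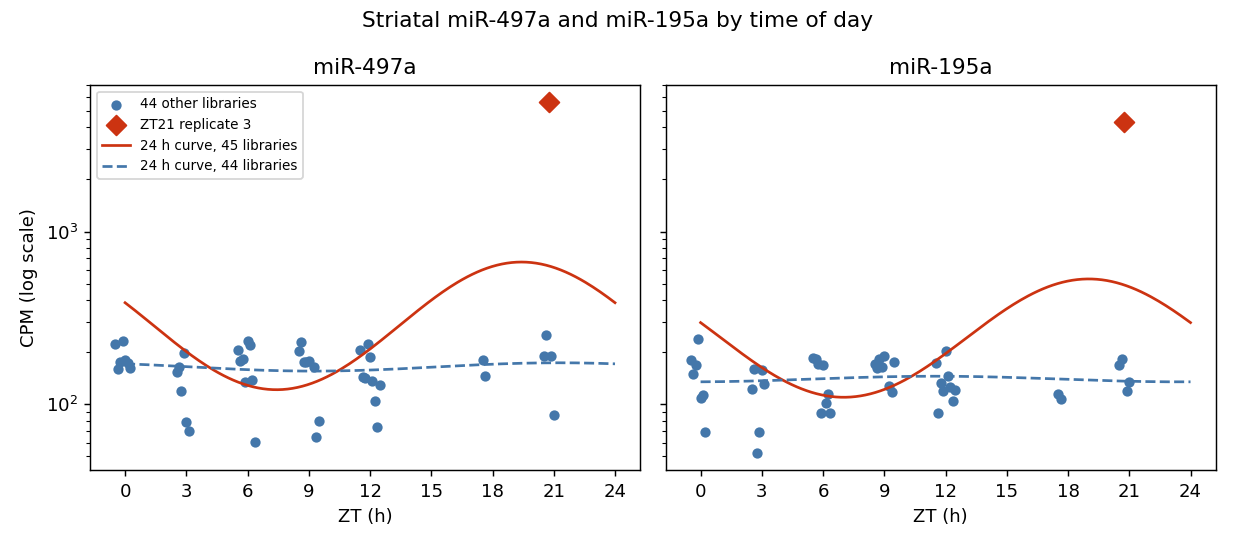
Levels of miR-497a and miR-195a in CPM (log axis) against ZT in hours; each point is 1 striatum library, shifted sideways within its ZT for clarity, the diamond is ZT21 replicate 3, and the lines are the fitted 24 h curves with 45 (solid) and 44 (dashed) libraries. The diamonds stand at 5579 and 4285 CPM, while the other libraries lie between 60.3 and 252 CPM and between 52.5 and 238 CPM.

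The other members of the family were tested too, 7 hairpins in all. miR-15a, which lies beside miR-16-1 on chromosome 14, had 1008 CPM in ZT21 replicate 3 and 197 to 498 CPM in the other 44 libraries. miR-16-2 had 19.6 CPM there against 0 to 7.42 CPM, and miR-15b, its neighbour on chromosome 3, had 66.2 CPM against 14.3 to 51.3. miR-16-1 (82.6 CPM) ranked second to another library at 118 CPM. miR-322, from the X chromosome, had 107 CPM, inside the range of 81.6 to 153 CPM of the others. So 5 of the 7 family members had their highest level in that library, beside 73 of all 381 hairpins tested, and 2 of 7 were called, beside 2 of 381. The family is described because miR-497a and miR-195a were called, so both counts hold that pair by choice and are no test of the family. The median log2 ratio of the family was 0.23 with all libraries, the same as the 0.23 of all hairpins tested, and 0.17 without ZT21 replicate 3, against 0.22. Without that library none of the 7 was called, 0 had an unadjusted p below 0.05 by edgeR, and the upper bounds of their ratios ran from 0.34 for miR-322 to 1.20 for miR-16-1.

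The same animal's other tissues had levels within the range of their own tissue. In the cortex library of the animal that gave ZT21 replicate 3, miR-497a had 752 CPM, within the 121 to 823 CPM of the 77 other cortex libraries. It had 78.5 CPM in that animal's hypothalamus (57.3 to 207 in 71 others) and 118 CPM in its liver (65.0 to 216 in 76 others). miR-195a had 441 CPM in that cortex (110 to 480), 111 CPM in the hypothalamus (71.0 to 167) and 112 CPM in the liver (89.2 to 209). From the top, miR-497a ranked 7 in that cortex, 59 in the hypothalamus and 70 in the liver, and miR-195a ranked 10, 39 and 59. CPM were scaled within each tissue.

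More miRNAs were high or low in ZT21 replicate 3, and several markers of other cell types were among them. The 4 red cell miRNAs (miR-451a, miR-144, miR-486a, miR-486b) summed to 1749 CPM there and to 194 to 1525 CPM in the other 44 libraries. Muscle miRNAs, all below the filter on low counts, summed to 130 CPM against 0 to 4.22 CPM; miR-206, a miRNA of skeletal muscle, alone had 106 CPM, where the next library had 3.65. miR-192 and miR-194-2, abundant in liver and other epithelia, had 9731 and 146 CPM against 1692 to 3806 and 11.9 to 31.8. The hepatocyte list of 4, which also holds miR-122 and miR-194-1, summed to 9881 CPM. miR-122 and miR-194-1 did not pass the filter on low counts, so the sum was nearly all miR-192. Vessel and mural miRNAs (miR-126a, miR-143, miR-145a) summed to 46520 CPM against 18980 to 44280. Of these 3, 0 had their own highest level there. miR-143 had 33010 CPM against a median of 15310 in the others, and miR-126a had 12810 against 9999. Mesenchyme miRNAs (the miR-199 and miR-214 hairpins) summed to 14.7 CPM against 0 to 6.45. miR-10b, of the Hox gene clusters, had 6372 CPM against a range of 40.7 to 3448. miR-204, the marker of choroid plexus, a tissue inside the brain ventricles, had 45860 CPM, and that list summed to 45870 CPM, inside the range of 8978 to 105300 of the others. The miR-200 and miR-183 clusters summed to 1868 CPM, also inside their range of 144 to 2127, but their members went both ways. miR-182 had 1726 CPM against a median of 250 in the others, and miR-183 had 117 against 20.5. Below their medians were miR-429 (4.09 CPM against 14.9), miR-200a (2.86 against 9.41), miR-200b (3.68 against 9.16) and miR-141 (4.91 against 8.72). Blood lineage miRNAs summed to 5940 CPM (4037 to 9289 in the others) and neuroendocrine miRNAs to 368 CPM (222 to 1251), both inside their ranges. The neuroendocrine members went both ways. miR-7a-1 had 253 CPM against a median of 87.9 in the others. Lower than their medians were miR-7a-2 (1.23 CPM against 58.7), miR-7b (29.4 against 112) and miR-375 (85.0 against 273).

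Neuronal miRNAs moved in both directions in the same library: of the 11 tested, 2 had their highest level there (miR-129-1 and miR-9-3) and 3 their lowest (miR-137, miR-153 and miR-124-2). Over all 381 hairpins tested these counts were 73 and 81, so they do not set the neuronal list apart. miR-129-1 had 824 CPM, against a median of 192 in the others, and miR-9-3 had 32.7 CPM against 12.0. miR-137, which is enriched in neurons, had 49.9 CPM, against 310 to 877 in the others, and miR-153 had 707 CPM against a median of 2727. Outside that list, miR-139 had 128 CPM against 276 to 2798. Of the 25 tested miRNAs of the imprinted Dlk1-Dio3 cluster, which is strongly expressed in brain, 11 had their lowest level there, beside 81 of all 381, and the cluster summed to 248100 CPM against 302300 to 421800. miR-434 of that cluster fell to 4.32% of counts, the lowest of 45. The neuronal list as a whole summed to 13700 CPM, within the range of 10240 to 27640, and the oligodendrocyte list to 6776 CPM, within 5340 to 14420. The part of these markers in the rhythm fits was not tested.

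**Figure D2:**
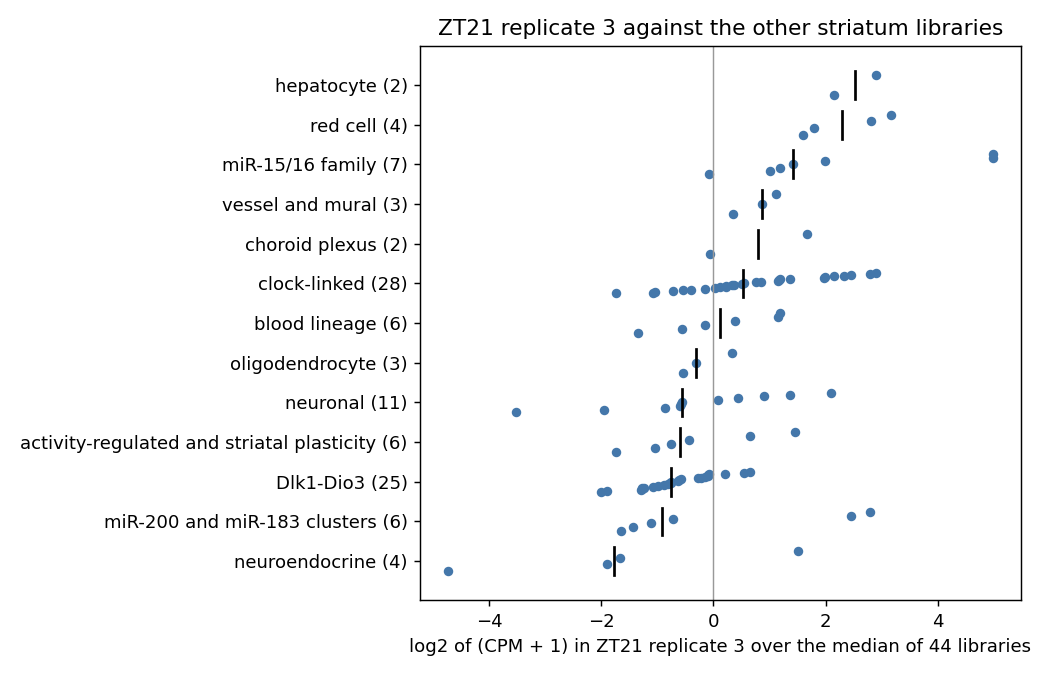
Each point is 1 tested hairpin of a named list (number in brackets); the horizontal axis is the log2 ratio of CPM + 1 in ZT21 replicate 3 to the median of the other 44 striatum libraries, and the black bar is the list's median. The miR-497a and miR-195a points of the miR-15/16 family lie farthest to the right.

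Of the 10 hairpins with at least 10 CPM and the smallest p in the 45 libraries, 8 were highest in ZT21 replicate 3. After the called pair came miR-130a, a miRNA of vessels and blood progenitors. It had 1298 CPM in that library, 334, 358, 481 and 337 CPM in the other ZT21 libraries, and 604 and 266 CPM at ZT18. Its ratio was 0.98 ± 0.27 (SE, n = 45; peak ZT17.8, adjusted p = 0.328) and 0.67 ± 0.25 without that library (n = 44; peak ZT17.1, adjusted p = 0.996). Its lowest, median and highest values at ZT3, the time with the lowest median, were 170, 238 and 348 CPM on the scale of the 44 libraries, which overlaps every other group.

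miR-486a, a red cell miRNA, had 189 CPM in ZT21 replicate 3 and 9.58 to 102 CPM elsewhere. Its ratio of 1.09 ± 0.32 (adjusted p = 0.328) became 0.58 ± 0.25 (adjusted p = 0.996), and its fitted peak moved from ZT21.3 to ZT1.64. The ratio of miR-194-2 went from 0.93 to 0.10 and that of miR-28a from 0.68 to 0.08. miR-30b, of the miR-30 family, went from 0.60 to 0.22. miR-182, of the miR-183 cluster of sensory cells, went from 1.24 to 0.85 and was not called (adjusted p = 0.999 and 0.996). miR-674 was highest at ZT3: in 44 libraries its median was 643 CPM there and 333 to 384 CPM at the other times, and its highest value, 1159 CPM, was in ZT3 replicate 3, which also had a wide spread (1.26). Its ratio was 0.61 ± 0.25 with 45 libraries and 0.64 ± 0.25 with 44 (adjusted p = 0.999 and 0.996).

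Other libraries moved single fits too. Among hairpins with at least 10 CPM, the 8 whose ratio moved most when 1 library was left out included 4 moved by ZT21 replicate 3 (miR-497a, miR-195a, miR-194-2 and miR-28a). miR-10b went from 0.87 to 1.49 without ZT6 replicate 5, where it had 3448 CPM against a median of 271, and to 1.37 without ZT21 replicate 3. miR-378b went from 1.68 to 2.36 without ZT12 replicate 1, and miR-1912, which lies in the serotonin receptor gene Htr2c, from 0.83 to 1.49 without ZT9 replicate 9. miR-200a went from 1.28 to 0.75 without ZT12 replicate 9, where it had 91.8 CPM against a median of 9.34. None of miR-10b, miR-378b, miR-1912 and miR-200a was called with or without its library.

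**Figure D3:**
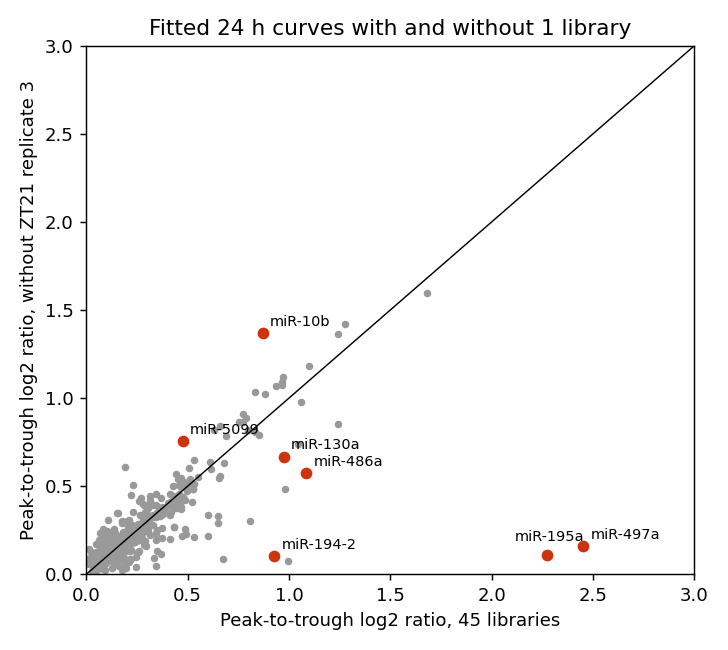
Peak-to-trough log2 ratio of each hairpin with 45 libraries (horizontal) and without ZT21 replicate 3 (vertical), with the line of equal values and 7 hairpins named in red. miR-497a and miR-195a drop from 2.45 and 2.27 to 0.16 and 0.11, and miR-5099 moves above the line from 0.47 to 0.75.

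miR-5099 was the only hairpin called without ZT21 replicate 3. On the scale of those 44 libraries its lowest, median and highest levels were 30.8, 49.3 and 79.4 CPM at ZT0, 56.5, 66.1 and 80.7 at ZT3, 50.4, 78.6 and 103 at ZT6, 62.3, 85.5 and 113 at ZT9, and 45.9, 76.4 and 108 at ZT12. At ZT18 it had 40.4 and 54.4 CPM, and the 4 libraries at ZT21 ran from 44.4 to 66.5 CPM with a median of 54.7. Medians thus rose from ZT0 to ZT9 and were lower again at ZT18 and ZT21. The groups overlapped in part: every ZT3 library and every ZT9 library was above both ZT18 libraries. Mean levels were 85.9 ± 17.4 CPM at ZT9 (SD over 8 libraries) and 52.6 ± 16.9 CPM over the 7 libraries of ZT0. The ratio was 0.75 ± 0.15 (SE, n = 44), 1.69-fold, with the peak at ZT8.88 (± 0.837 h) and adjusted p = 0.00657. The library left out held 150 CPM of miR-5099, the highest of the 45, and with it the ratio was 0.47 ± 0.17 (n = 45; peak ZT9.98, adjusted p = 0.999).

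Permuting ZT for miR-5099 alone gave p = 0.00653 with all 45 libraries (R2 = 0.214 on log2(CPM + 1)) and p = 9e-05 without ZT21 replicate 3 (R2 = 0.3845). Because miR-5099 was picked for its curve in these libraries, these p-values, which are not adjusted over the hairpins tested, describe the curve and add no independent support. The call in the 44 libraries was lost with library totals in place of TMM scaling (adjusted p = 0.059) and with no filter on low counts (0.0883). It was also lost with ZT as a factor (0 hairpins called by edgeR, 21 at an unadjusted p below 0.05). Library run as a term, each shorter stretch of the time series and each set of runs taken alone lost it too, with values given below. Leaving out ZT21 replicate 3 and each of the other 44 libraries in turn, miR-5099 was called in 44 of 44 fits, with ratios from 0.71 to 0.81, peaks from ZT8.55 to ZT9.18 and adjusted p from 0.00206 to 0.0242. In the 44 fits that kept ZT21 replicate 3 and left out another library it was called in 0, with adjusted p of at least 0.764.

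Runs differed in miR-5099 as well, from a median of 48.1 CPM in run 5 to 89.5 CPM in run 1. Within runs 1 to 3 (17 libraries without ZT21 replicate 3, and none at ZT18) the ratio was 0.63 ± 0.14 (SE) with the peak at ZT10.0. Within runs 4 to 9 (27 libraries) it was 0.87 ± 0.20 with the peak at ZT9.15. Unadjusted p was 0.00114 and 0.00087, and adjusted p was 0.467 and 0.306 in these smaller sets. With run as a term and without ZT21 replicate 3 the ratio was 0.62 with adjusted p = 0.0583. The days could be compared at ZT0 to ZT12: median CPM was 43.9 and 60.1 on the first and second day at ZT0, 64.6 and 68.7 at ZT3, 73.7 and 83.4 at ZT6, 81.0 and 90.1 at ZT9, and 65.5 and 92.0 at ZT12. The second day was higher at all 5 times, and both days had a lower median at ZT0 than at ZT3, ZT6, ZT9 or ZT12.

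**Figure D4:**
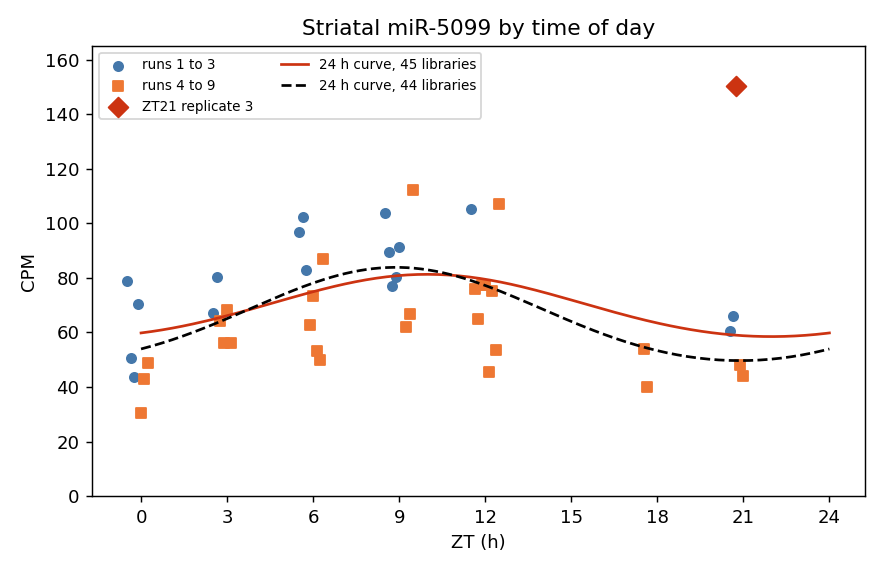
miR-5099 in CPM against ZT in hours; circles are libraries of runs 1 to 3, squares runs 4 to 9, shifted sideways within their ZT, the diamond is ZT21 replicate 3, and the lines are the fitted 24 h curves with 45 (solid) and 44 (dashed) libraries. Apart from the diamond, levels are highest around ZT6 to ZT12 in both sets of runs, though runs 1 to 3 hold only 1 library at ZT12 and none at ZT18. The diamond at 150 CPM lies above all other points.

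Outside miR-5099, 7 further hairpins had an unadjusted p below 0.05 in the 44 libraries, of 379 tested, and each had an adjusted p of 0.996. let-7c-1, of the let-7 family that restrains growth genes, had a ratio of 0.40 ± 0.13 with its peak at ZT4.97, with medians of 60.7 CPM at ZT3 and 45.8 CPM at ZT21. miR-128-1, abundant in neurons, had 0.78 ± 0.29 (peak ZT4.90) and miR-674 the 0.64 given above (peak ZT3.68). miR-181b-1 had 0.34 ± 0.13 with its peak at ZT9.01. miR-130a and miR-301b, which share a family, had 0.67 ± 0.25 and 0.50 ± 0.19 with peaks at ZT17.1 and ZT15.5. miR-34c, a miRNA of the p53 pathway and of ciliated cells, had 1.37 ± 0.55 with the peak at ZT18.6, with single libraries from 243 to 8162 CPM. miR-592 (0.39 ± 0.17) and miR-98 (0.23 ± 0.09) came next.

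The miRNAs known from activity and plasticity in the striatum were not called: 0 of 6 tested, with 0 at an unadjusted p below 0.05 by edgeR in both fits. Over all hairpins 2 of 381 and 1 of 379 were called, and 3.68% and 2.11% had such a p. A count of 0 of 6 thus does not set these miRNAs apart. Their median ratio was 0.27 with and without ZT21 replicate 3. miR-132 had medians of 6293, 6468, 5146, 5593 and 4937 CPM from ZT0 to ZT12, then 5645 and 8400 CPM in the libraries of ZT18 and a median of 6040 CPM at ZT21. These groups overlapped, and its ratio was 0.36 ± 0.21 (n = 44), with an upper bound of 0.91. miR-212, made from the same transcript, had 0.20 ± 0.16 with an upper bound of 0.61. miR-134, which acts at dendritic spines, had 0.32 ± 0.20 (upper bound 0.84), and miR-181a-1 had 0.24 ± 0.12 (upper bound 0.55).

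Among the 28 tested miRNAs linked to the clock, 0 were called in either fit, beside 2 of 381 and 1 of 379 over all hairpins. With all libraries 3 had an unadjusted p below 0.05 (miR-194-2, miR-182 and miR-24-2), and without ZT21 replicate 3 there were 0, beside 3.68% and 2.11% of all hairpins tested. Their median ratio was 0.30 and then 0.26, beside 0.23 and 0.22 for all hairpins tested. miR-219a-2, an oligodendrocyte miRNA linked to the clock, had 0.20 ± 0.12 in 44 libraries with an upper bound of 0.52. For miR-27b and miR-29a the upper bounds were 0.36 and 0.46, or under 1.38-fold for the second. For miR-192 and miR-194-2, whose other reported roles include the repression of Per genes, they were 0.48 and 0.55. miR-182 and miR-141 had wide bounds of 2.11 and 2.77, so large rhythms could not be told from none there.

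The other lists held no call in either fit, beside the 2 of 381 and 1 of 379 called over all hairpins. In 44 libraries the median ratio was 0.43 over 11 neuronal miRNAs, 0.26 over 3 oligodendrocyte miRNAs, 0.21 over 6 of the blood lineage, 0.24 over 4 of red cells, 0.12 over 3 of vessels, 0.40 over 4 neuroendocrine and 0.15 over 25 of the Dlk1-Dio3 cluster. The 6 tested members of the miR-200 and miR-183 clusters, miRNAs of secretory epithelium and sensory cells, had a median ratio of 1.05. Their fitted peaks ran from ZT15.9 for miR-141 to ZT19.0 for miR-183. Of them, 0 of 6 had an unadjusted p below 0.05 by edgeR, beside 2.11% of all hairpins tested. Their summed level over all 8 members had medians of 254, 347, 299, 246 and 441 CPM from ZT0 to ZT12, with single libraries from 144 to 2127 CPM. It was 476 and 511 CPM at ZT18, inside that range. The choroid plexus pair, miR-204 and miR-211, had, on the scale of the 45 libraries, medians of 12390 to 14840 CPM from ZT0 to ZT12, 15500 and 40350 CPM in the libraries of ZT18, and a median of 38570 CPM over all 5 libraries of ZT21, the highest of which was ZT21 replicate 3. Single libraries at ZT0, ZT3, ZT9 and ZT12 reached 78070, 76070, 105300 and 66880 CPM, so the groups overlapped, and the ratio of miR-204 in 44 libraries was 0.56 with an upper bound of 1.89. The part of choroid plexus tissue in the other curves was not tested.

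Among the most abundant miRNAs, miR-127 held 17.6% ± 3.56 of the counts (SD, n = 45) and miR-434 held 11.4% ± 3.13, followed by miR-30a (6.62% ± 1.55), miR-22 (5.33% ± 1.41) and miR-125a (4.71% ± 0.940). Their ratios in 44 libraries were 0.11 ± 0.13, 0.14 ± 0.21, 0.09 ± 0.20, 0.14 ± 0.21 and 0.04 ± 0.12 in the same order, each smaller than its SE, with upper bounds of 0.45, 0.69, 0.61, 0.67 and 0.41. Over all 379 hairpins the upper bound was below 1, a doubling from trough to peak, for 247 (65.2%), and below 1.5-fold for 85 (22.4%). Its median was 0.83. The share of hairpins with an unadjusted p below 0.05 was 3.68% with 45 libraries (14 of 381) and 2.11% with 44 (8 of 379).

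**Figure D5:**
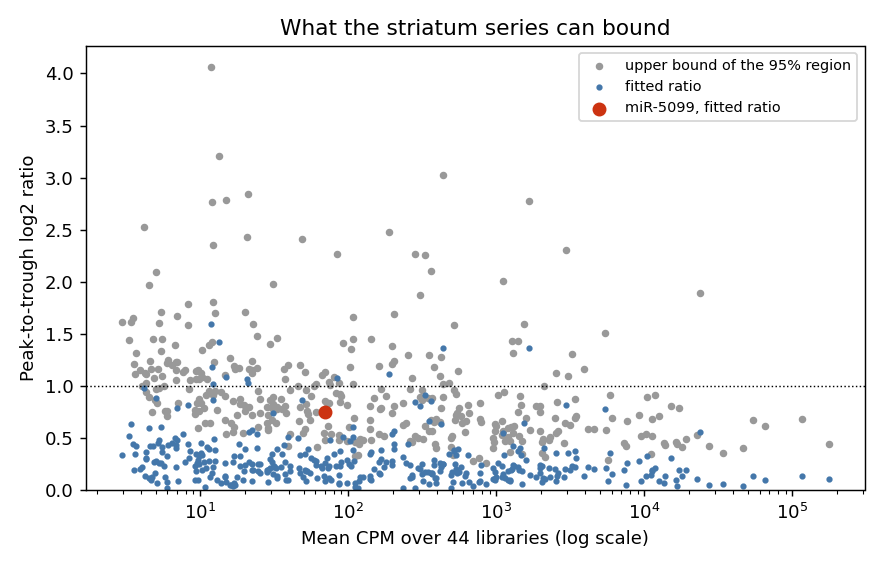
Fitted peak-to-trough log2 ratio (blue) and the upper bound of its 95% region (grey) for each of the 379 hairpins in the 44 libraries without ZT21 replicate 3, against mean CPM on a log axis; the dotted line marks a log2 ratio of 1 and the red point is the fitted ratio of miR-5099. The upper bound lies below the line for 247 hairpins.

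Whether the striatal curves differ from those of neighbouring brain tissue was tested as an interaction of tissue with the 24 h terms. Against cortex (45 and 78 libraries) 2 of 418 hairpins differed (0.478%), miR-497a and miR-195a, both with adjusted p = 9.41e-05. Against hypothalamus (45 and 72 libraries) 3 of 403 did (0.744%): miR-497a (adjusted p = 0.00015), miR-195a (0.000419) and miR-130a (0.0264). The fitted ratio of miR-497a was 0.15 ± 0.19 in cortex and 0.25 ± 0.19 in hypothalamus, and that of miR-195a 0.08 ± 0.10 and 0.11 ± 0.08. Without ZT21 replicate 3 no hairpin differed in either comparison by edgeR, with 22 of 415 and 21 of 402 at an unadjusted p below 0.05. With the animal as a block, over the 44 animals that gave striatum and cortex and the 43 that gave striatum and hypothalamus, 0 differed in each, with 9 and 4 at an unadjusted p below 0.05; DESeq2 without the block gave 3 and 1 calls.

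For miR-5099 no difference from cortex (adjusted p = 0.953) or hypothalamus (0.946) passed, and without ZT21 replicate 3 the values were 0.993 and 0.978. Its ratios in striatum without that library, cortex and hypothalamus were 0.75 ± 0.15, 0.57 ± 0.08 and 0.68 ± 0.10, with peaks at ZT8.88, ZT8.38 and ZT8.18. In liver it was 0.60 ± 0.08 with the peak at ZT6.33; the difference from striatum was not tested. Many animals gave more than 1 tissue, so these curves do not rest on separate sets of mice.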

How the data were processed

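Small RNA libraries of right striatum were compared over ZT. The authors deposited whole-number counts per library and miRNA hairpin, unnormalized; GRCm38 (mm10), HTSeq 0.10.0 and STAR 2.7.3a are listed in the submitters' processing notes. Per the labels' protocols, RNA came from a miRNeasy kit, was checked on a Bioanalyzer, and at least 3.75 µg went into enriched small RNA for Illumina libraries. Trimming, and the handling of reads that match several hairpin copies (miR-16-1 and miR-16-2, for example), are not given in the sources used here; a hairpin count adds both arms. Libraries had 743902 to 4022070 counts.

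edgeR 4.0.16 in R 4.3.3 used TMM scaling, filterByExpr on the design and quasi-likelihood F tests of a cosine and sine of 24 h, as coded from the ZT labels. Errors of ratio and peak are delta-method SE; the upper bound is the largest ratio in the joint 95% region. CPM values use TMM over the libraries of the fit, so they differ by under 1% between 45 and 44 libraries. Permutation tests reassigned ZT 100000 times on log2(CPM + 1). DESeq2 1.42.0 and limma 3.58.1 were alternatives. Fits were tested on simulated data. The labels do not say what the L code that defines the runs means. In the fits of striatum alone, p-values measure the spread between animals, 1 library each. The tissue comparisons without the animal block treated libraries of the same animal as separate. Named miRNAs were those called, the 10 with the smallest p and at least 10 CPM in each fit, those called under an alternative, the 5 most abundant, the 8 most moved by 1 library, and leading list members. Outside that rule, miR-137, miR-139, miR-206 and miR-133b were picked for their values. The members, lists and miRNAs were chosen with earlier results of these data known. Sequences and hairpin positions are from RefSeq, overlapping genes from GENCODE M21. Python 3.11.15 with matplotlib 3.10.9 drew the plots.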

Additional observations from a re-analysis of the deposited data

Results flagged for a closer look

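Within the ZT21 group of 5 libraries, replicate 3 was far from the other 4 in all 3 miRNAs followed by library. miR-497a had 5579 CPM there, where the next was 252 CPM. miR-195a had 4285 CPM with the next at 183 CPM, and miR-5099 had 150.4 CPM with the next at 66.1 CPM. In the groups of ZT0, ZT3, ZT6, ZT9 and ZT12 no library stood apart by the same measure in these 3 miRNAs. Chance alone sets a library apart in about 1 in 20 groups for a miRNA picked beforehand, and the 3 cases here are 1 library. These 3 were not picked beforehand: miR-497a and miR-195a were called in the fit with this library, and miR-5099 in the fit without it. That rate therefore does not apply to them, and their values add no separate support.

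The 24 h curve of striatum differed from that of another tissue in 5 tests that treated all 45 striatum libraries and those of the other tissue as separate, although many animals gave both: miR-195a and miR-497a against cortex (edgeR adjusted p = 9.412e-05 for both), and miR-130a (0.02635), miR-195a (0.0004191) and miR-497a (0.0001499) against hypothalamus. With the animal as a block, and ZT21 replicate 3 kept, none of the 5 passed: adjusted p was 0.9947 for miR-195a and miR-497a against cortex and 0.9995 for all 3 against hypothalamus. Without ZT21 replicate 3 and without the block the adjusted p values were 0.993 and 0.993 against cortex for miR-195a and miR-497a, and 0.622, 0.961 and 0.903 against hypothalamus for miR-130a, miR-195a and miR-497a.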

How the results depend on the processing

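The 2 calls of the 45 libraries stood with all 46 libraries, a higher minimum total (39 libraries), DESeq2 size factors, a median CPM of at least 10, robust dispersion, a linear time term, ZT as a factor, or ZT18 left out. Of 381, library totals called 1 (miR-497a; miR-195a had adjusted p = 0.0539), sample quality weights 1 (miR-5099, adjusted p = 0.00919, with 59 at an unadjusted p below 0.05), and the 39 libraries without a wide spread 1 (miR-5099, 0.0323). No filter called 4 of 915, adding miR-206 and miR-133b at means of 3.15 and 0.816 CPM. DESeq2 called 0 (12 at an unadjusted p below 0.05; it gave no p for miR-497a and miR-195a). Normal scores (7), library run as a term (12), the same without ZT21 replicate 3 (16), times 0 to 21 h (25), 15 to 36 h (8) and ZT21 left out (5) called 0 each, with the number at an unadjusted p below 0.05 in brackets. Leaving out 1 library gave 1 to 2 calls, 1 only without ZT21 replicate 3.

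Alternatives chosen after seeing the data left out ZT21 replicate 3 together with another choice. They called 1, miR-5099, with DESeq2, DESeq2 size factors, a median CPM filter, robust dispersion, a linear time term or all other 45 libraries (adjusted p = 0.000217 to 0.0226). They called 0 with library totals (9 at an unadjusted p below 0.05; miR-5099 0.059), no filter (47; 0.0883), ZT as a factor (21), 0 to 21 h (23; 0.206) and 15 to 36 h (3; 0.152), and 0 in runs 1 to 3 (29) and in runs 4 to 9 (14).

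With the replicate block the 45 libraries gave 0 calls (11 at an unadjusted p below 0.05), and without ZT21 replicate 3 they gave 1 (miR-5099, adjusted p = 0.000219). The labels do not give replicate numbers as pairs. Deviations of same-numbered libraries correlated at 0.114 on average (lowest -0.526), against -0.0132 for other numbers, and 8 of 45 libraries correlated best with their own number. Libraries of the same run correlated at 0.217. Replicate numbers follow the order of library numbers within each ZT, so the block can carry part of the run.

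For the difference from cortex, 2 calls became 5 with DESeq2 size factors and 0 with the animal block, also without ZT21 replicate 3. Leaving out 1 striatum library gave 0 to 6 calls: 0 without ZT21 replicate 3, 6 without ZT21 replicate 2, 4 without ZT0 replicate 5, and 5 without ZT21 replicate 1, ZT0 replicate 3, ZT12 replicate 4 or ZT18 replicate 2. For hypothalamus, 3 calls became 1 with DESeq2 and 0 with run as a term (31 at an unadjusted p below 0.05) or the animal block, also without ZT21 replicate 3; leaving out 1 library gave 0 (ZT21 replicate 3) to 4. The cause was not tested. Depth limits hairpins near the floor of 0.746 to 4.03 CPM.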
